A study of Arabidopsis thaliana with 15 samples.

Results

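The SAUR genes described here are 48 loci of Arabidopsis thaliana, chosen by gene identifier from all 33977 features of the count tables. Of these, 28 lie in 6 tandem arrays and 20 are called dispersed here. Some of the 20 are neighbours all the same, such as SAUR51 and SAUR52, and SAUR70 and SAUR76. A further 32 annotated SAUR genes were not among the 48 and serve only for comparison. Expression was measured by RNA-seq in 15 Col-0 plants, 3 in each of 5 groups. Gen1 memory plants were first-generation, transgene-free progeny of a line in which the nuclear gene MSH1 had been silenced by an RNAi transgene, and they grew slowly, flowered late and had pale leaves. Gen5 memory plants descended from the same material by selfing to the fifth generation, through 1 plant in each generation, so they sample a single lineage. Gen1 nonmemory plants were transgene-free full sibs of the Gen1 memory plants with a normal appearance. Gen1 WT and Gen5 WT were Col-0 controls of the same generations that had been through the same transformation procedure. No plant of any group carried the transgene, and all were grown at 22 °C with 12 h of light. The sample labels call the tissue whole rosette, whereas the extraction protocol speaks of whole plants at bolting.

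SAUR stands for small auxin up RNA, since many of these short genes are transcribed within minutes of an auxin pulse. The best studied proteins of the family, those of the SAUR19 group, bind and inhibit PP2C.D phosphatases, which otherwise switch off plasma membrane proton pumps (AHA). Pump activity acidifies the cell wall and lets the cell expand. Auxin, brassinosteroid and light reach many SAUR promoters through ARF, BZR and PIF transcription factors, and other SAUR proteins are known to act in senescence, hook opening or ethylene responses.

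The AT5G18 array holds SAUR19 to SAUR24 (chr5:5962773-5984308, TAIR10.1), and the AT1G29 array holds 8 genes of the SAUR61 to SAUR68 group (chr1:10301377-10323239). The AT3G03 array holds SAUR26 to SAUR29 (chr3:976715-983768). The AT4G38 array holds SAUR14, SAUR15 and SAUR16 (chr4:18124978-18131284). The AT4G34 array holds SAUR50, SAUR1, SAUR3, SAUR4 and SAUR5 (chr4:16582183-16599568), and the AT2G21 array holds SAUR6 and SAUR7 (chr2:9083906-9086029). Gene names follow the TAIR10.1 annotation of RefSeq, which gives the symbol SAUR68 or SAUR67 to AT1G29510 and lists SAUR68 also as a synonym of AT1G29490.

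Array members resemble each other to different degrees, which bears on how reads were assigned to them. Coding sequences in the AT5G18 array were 87.7% to 95.2% identical (median 91.2% over 15 pairs). Identity was 77.7% to 86.3% in the AT3G03 array, 45.4% to 89.3% in the AT1G29 array, 49.7% to 62.4% in the AT4G34 array and 50% to 60.3% in the AT4G38 array. It was 40% for the AT2G21 pair. Dispersed genes were 34.8% to 81.9% identical to each other (median 45.95%). The start of the coding sequence of the 6 AT5G18 genes shows how close they are. Its first 60 bases are given with capitals where a gene differs from SAUR19.
SAUR19 (chr5:5963246-5963305, minus strand): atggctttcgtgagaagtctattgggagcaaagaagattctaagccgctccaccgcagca
SAUR20 (chr5:5966521-5966580, minus strand): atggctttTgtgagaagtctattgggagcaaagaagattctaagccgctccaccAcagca
SAUR21 (chr5:5968527-5968586, plus strand): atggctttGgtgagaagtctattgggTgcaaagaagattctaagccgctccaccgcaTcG
SAUR22 (chr5:5974904-5974963, minus strand): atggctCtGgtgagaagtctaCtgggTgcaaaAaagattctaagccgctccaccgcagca
SAUR23 (chr5:5976030-5976089, plus strand): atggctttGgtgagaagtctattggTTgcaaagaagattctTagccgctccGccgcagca
SAUR24 (chr5:5983840-5983899, plus strand): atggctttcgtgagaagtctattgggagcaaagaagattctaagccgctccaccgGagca
SAUR24 differed from SAUR19 at 1 of these bases, SAUR20 at 2, SAUR21 at 4, and SAUR22 and SAUR23 at 5 each. The study sequenced read pairs of 150 bases and counted uniquely mapped pairs. Every exonic 150-base window of 45 of the 48 genes occurred once in the genome. The exceptions were AT1G29430 (98.1% of windows), AT1G29510 (91.8%) and AT1G29440 (90.1%), whose counts may therefore be low. AT2G21200 and AT2G21210 share 176 bases on the same strand, so the split of reads between SAUR7 and SAUR6 is uncertain. Counting ignored strand, and annotated genes on the opposite strand overlap SAUR63 (602 bases), SAUR61 (342), SAUR8 (594) and SAUR31 (516). SAUR64 and SAUR7 have such overlaps of 32 and 4 bases. Reads there may be ambiguous, and the effect on the counts of these genes was not tested.

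Promoters of the genes were scanned, from 250 bases before to 50 bases after the start, for motifs of factors known to act on SAUR genes. The E-box CATGTG, which PIF factors are known to bind, was present on either strand in 26 of 48 SAUR promoters (54.2%), against 3544 of 27443 promoters of all protein-coding genes (12.9%). It was found in 22 of 28 array members (78.6%) and in 4 of 20 dispersed members (20%). All 8 AT1G29 promoters and all 4 AT3G03 promoters held it, as did 4 of 5 in the AT4G34 array. It was in 3 of 6 AT5G18 promoters, 2 of 3 AT4G38 promoters and 1 of 2 AT2G21 promoters. The AT5G18 genes without it were SAUR20, SAUR23 and SAUR24. The auxin response element TGTCTC was present in 8 SAUR promoters (16.7%), all of them in arrays, against 14.2% of all promoters. Its variant TGTCGG was in 2 (4.2%, against 5.1%), the G-box CACGTG in 1 (2.1%, against 7.7%), and the evening element AAAATATCT in 0 (against 2.8%). The end of CATGTG can overlap the start of TGTCTC, and the other motifs were counted apart. Members of an array are related to different degrees, so their promoters cannot be taken as independent.

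**Figure D1:**
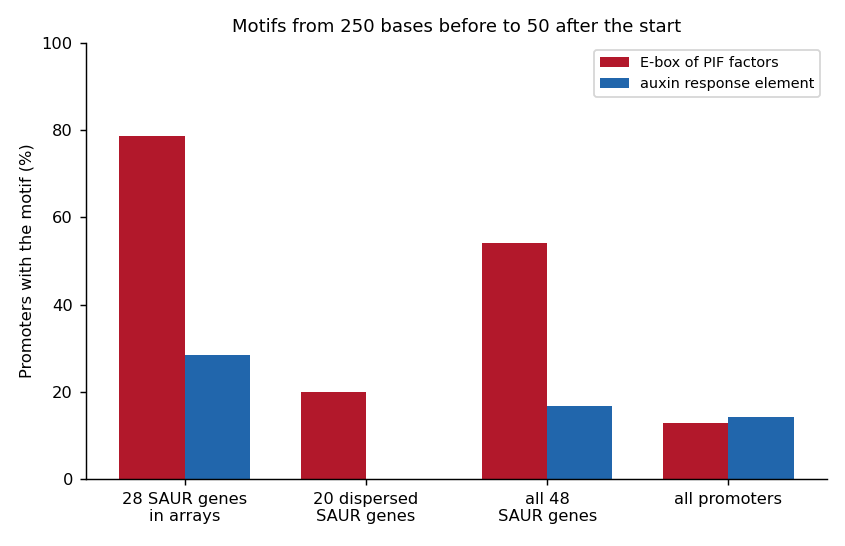
Share of promoters (%) that hold the E-box of PIF factors (red) or the auxin response element (blue), for the SAUR genes in arrays, the dispersed SAUR genes, all SAUR genes and all promoters of protein-coding genes. The E-box bar is at 78.6% for array members, 20% for dispersed members and 12.9% for all promoters.

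The bases just upstream of the annotated start are given for 6 genes that were higher in memory plants and carry the E-box or its reverse complement CACATG, or the auxin element or its reverse complement GAGACA (capitals), and for SAUR16 and SAUR78, which rose and fell strongly and hold neither motif in the stretch shown.
SAUR15 (chr4:18125857-18126056, plus strand): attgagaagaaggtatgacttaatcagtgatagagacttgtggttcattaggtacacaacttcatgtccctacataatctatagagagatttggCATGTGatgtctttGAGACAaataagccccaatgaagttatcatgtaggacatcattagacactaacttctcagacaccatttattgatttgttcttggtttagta
SAUR14 (chr4:18125560-18125679, minus strand): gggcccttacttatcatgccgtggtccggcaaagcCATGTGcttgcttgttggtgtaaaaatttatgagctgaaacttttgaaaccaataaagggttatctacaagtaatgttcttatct
SAUR61 (chr1:10302100-10302299, minus strand): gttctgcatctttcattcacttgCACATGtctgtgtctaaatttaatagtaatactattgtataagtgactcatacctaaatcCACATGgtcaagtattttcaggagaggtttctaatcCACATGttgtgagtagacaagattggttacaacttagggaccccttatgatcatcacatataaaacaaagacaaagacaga
SAUR65 (chr1:10308247-10308366, minus strand): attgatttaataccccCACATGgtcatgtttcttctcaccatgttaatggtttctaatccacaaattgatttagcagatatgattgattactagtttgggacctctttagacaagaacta
SAUR22 (chr5:5975088-5975207, minus strand): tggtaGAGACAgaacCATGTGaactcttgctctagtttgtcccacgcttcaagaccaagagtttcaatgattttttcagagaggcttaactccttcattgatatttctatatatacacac
SAUR51 (chr1:28377257-28377376, plus strand): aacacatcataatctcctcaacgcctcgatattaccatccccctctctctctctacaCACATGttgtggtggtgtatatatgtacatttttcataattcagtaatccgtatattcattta
SAUR16 (chr4:18130117-18130236, plus strand): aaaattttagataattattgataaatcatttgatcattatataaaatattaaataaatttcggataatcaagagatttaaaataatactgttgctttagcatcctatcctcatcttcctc
SAUR78 (chr1:27265807-27265926, minus strand): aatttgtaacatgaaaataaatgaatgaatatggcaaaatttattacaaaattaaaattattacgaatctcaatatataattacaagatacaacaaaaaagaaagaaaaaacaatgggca
In the SAUR15 and SAUR22 promoters the E-box and the auxin element stood close to each other. A match to a motif does not show that a factor binds there. Of the 17 genes called higher in Gen1 memory over nonmemory plants (defined below), 12 held the E-box (70.6%), and of the 5 called lower, 1 did (20%). The shares were 8 of 13 (61.5%) and 2 of 6 (33.3%) in Gen1 memory over Gen1 WT plants, and 15 of 23 (65.2%) and 1 of 5 (20%) in Gen5 memory over Gen5 WT plants. The rising genes lie mostly in arrays, where the motif is common whatever the gene did: 4 of 5 AT4G34 promoters held it, and no AT4G34 gene was called higher.

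The depth was even, with 77169986 to 79202824 counts on genes in each plant, and organelle genes were at 0 in every plant. The MSH1 transcript itself lay between 633 and 916 normalised counts in memory plants and between 652 and 819 in the other 9 plants. Leaf markers behaved unequally: the summed count of 4 photosynthesis genes was 3583637 to 4480409 in memory plants and 2006444 to 2497352 in the others, with CAB1 and LHCA1 called higher in each memory comparison and RBCS1A and GAPA in none. Summed counts of 7 floral organ genes were 56.0 to 92.2 in memory plants and 65.8 to 126 in the others, and those of 5 root genes were 19.9 to 59.6 in memory plants and 21.6 to 104 in the others. The floral regulator LFY and the root hair gene EXPA7 were at 0 in all 15 plants, and AP1 lay between 0 and 1.92 normalised counts. Other floral genes moved in Gen1 memory over Gen1 WT plants, where AG (-1.10) and SEP1 (-1.77) were called lower and SEP3 higher (1.44 on the log2 scale), and none was called in the other memory comparisons. The part of these tissue markers in the SAUR results was not tested, and in bulk tissue fewer cells of a type and less RNA per cell cannot be told apart. No source says that plants of a group were grown or prepared separately, so p-values measure the spread between these plants only.

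A gene was called when edgeR's quasi-likelihood test gave an adjusted p under 0.05, with Benjamini-Hochberg adjustment over all genes tested, and the log2 fold change exceeded 0.5 in size. The SAUR genes of this set, chosen with earlier results of these data known, were called more often as higher than as lower in memory plants. In Gen1 memory over nonmemory plants, 17 of 45 tested SAUR genes were called higher and 5 lower, while 11.1% of all tested genes were called higher and 12.2% lower. In Gen1 memory over Gen1 WT plants, 13 of 45 were called higher and 6 lower, against 9.52% and 10.5% of all genes. In Gen5 memory over Gen5 WT plants, 23 of 44 were called higher and 5 lower, against 13.3% and 13.7% of all genes. The AT5G18 array held 6, 5 and 6 of the genes called higher in these comparisons, and the AT4G38 array 3 in each. The SAUR genes outside the set did not share the surplus of rises, with 2, 0 and 2 called higher and 3 lower in each. The median log2 fold change of the tested SAUR genes was 0.44, 0.13 and 0.60 in these 3 comparisons, and that of all tested genes lay between -0.01 and 0.01. Both Gen1 comparisons use the same 3 Gen1 memory plants. Of the 44 SAUR genes tested in all 3 comparisons, 13 were called higher in each and 3 lower in each (of 19536 genes of any kind, 5.98% and 6.29%), no gene was called in opposite directions, and 14 of the 45 tested at all were called in none. AT4G13790 (SAUR25), AT1G19830 (SAUR54) and AT5G50760 (SAUR55) were too low to be tested. Without Gen1 memory plant 2, the count for Gen1 memory over nonmemory plants was 14 instead of 22. Memory plants had TMM factors of 0.884 to 0.956 and the others of 1.02 to 1.08. Scaling by library size alone shifted the median of all genes by -0.15, -0.17 and -0.16 in the 3 memory comparisons, and all changes here are relative to TMM. Under that scaling 11 SAUR genes were called higher and 8 lower in Gen1 memory over Gen1 WT plants.

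**Figure D2:**
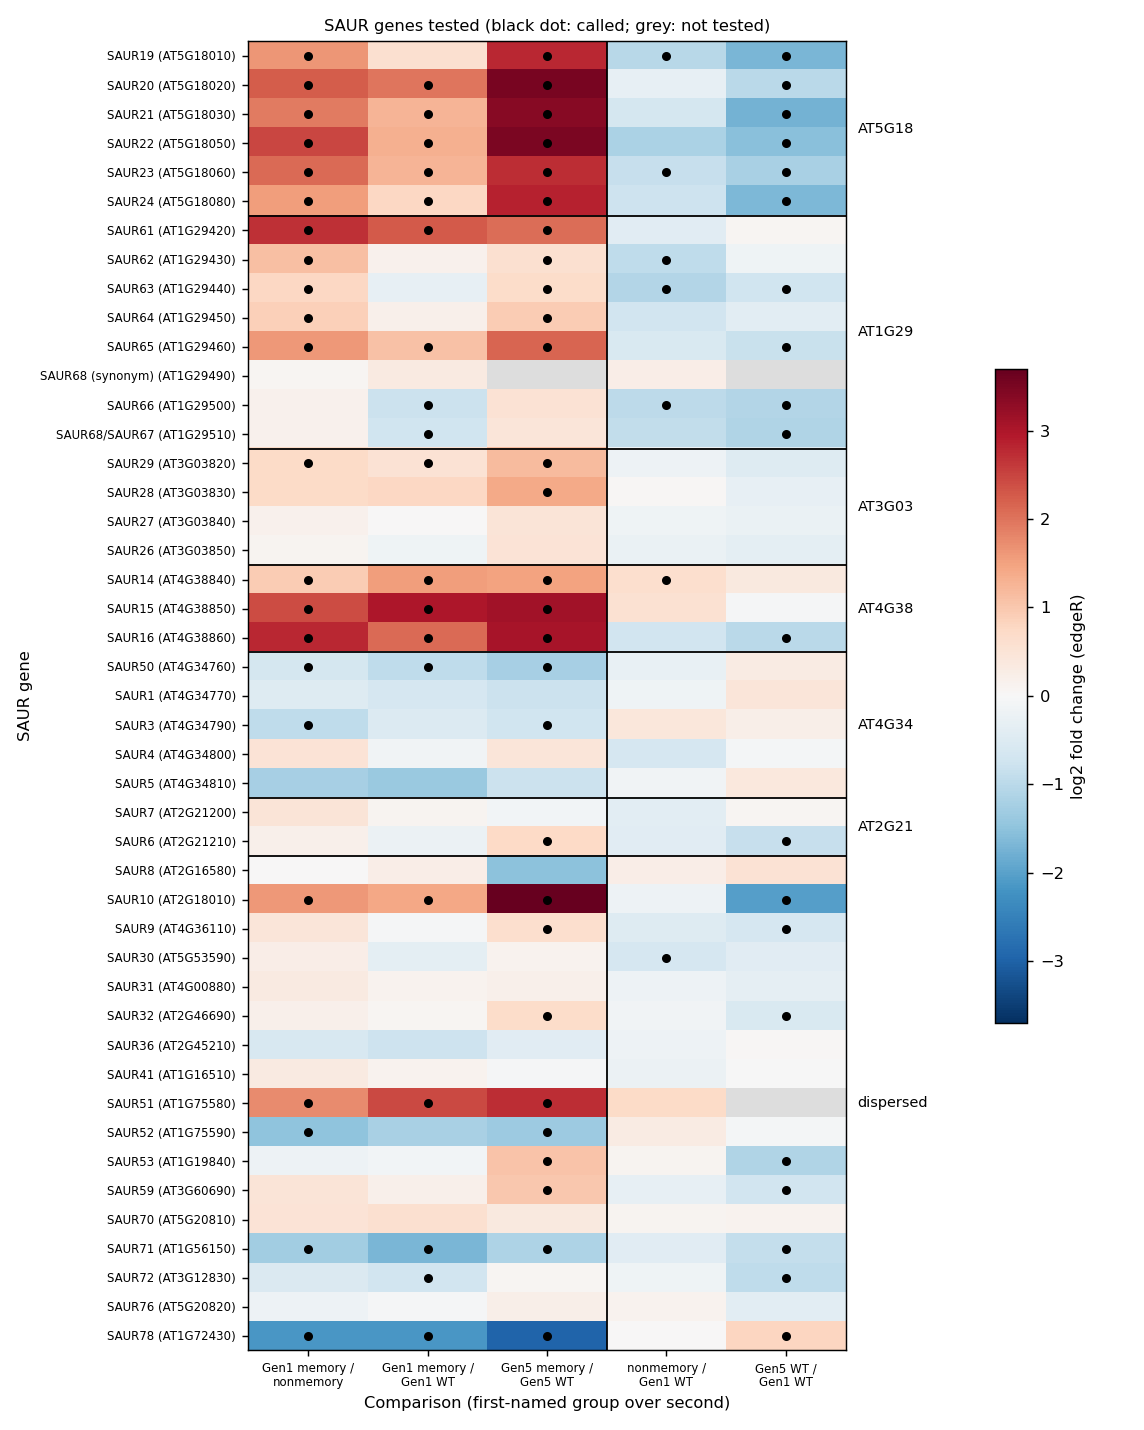
Log2 fold changes (colour) of the 45 tested SAUR genes, arranged by array, in the 3 memory comparisons (left of the vertical line) and the 2 comparisons among controls (right). A black dot marks a called gene and grey a gene that was not tested. The AT5G18 and AT4G38 arrays are red throughout the memory comparisons (11 of the 13 genes called higher in each of the 3 are in arrays), and SAUR78 is the deepest blue.

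The AT5G18 array, which encodes the SAUR19 group of growth-promoting PP2C.D inhibitors, was higher as a whole. Its summed normalised count was 2915, 2598 and 1779 in the Gen1 memory plants, against 809, 550 and 543 in nonmemory plants and 1062, 798 and 1342 in Gen1 WT plants. It was 2855, 4627 and 2357 in Gen5 memory plants, against 343, 388 and 404 in Gen5 WT plants. Every memory plant was thus above every other plant. All 6 genes were called higher in Gen1 memory over nonmemory plants and in Gen5 memory over Gen5 WT plants, and 5 of 6 in Gen1 memory over Gen1 WT plants. The median log2 fold changes were 2.01, 3.11 and 1.26 in that order. SAUR19 was the gene not called, with a log2 fold change of 0.60 ± 0.27 (SE, adjusted p = 0.13, edgeR) over Gen1 WT.

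SAUR20 (AT5G18020, chr5:5966183-5966785, a single exon on the minus strand) had the largest mean log2 fold change of this array over the 3 memory comparisons (2.58), although SAUR22 changed more over nonmemory plants. It had 527, 436 and 287 normalised counts in Gen1 memory plants, 120, 70.7 and 72.5 in nonmemory plants and 112, 81.5 and 129 in Gen1 WT plants. It had 627, 817 and 385 in Gen5 memory plants and 57.2, 44.6 and 58.9 in Gen5 WT plants. The memory plants lay above all others without overlap. Its log2 fold change was 2.25 ± 0.30 over nonmemory plants (adjusted p = 0.00114, edgeR), 1.97 ± 0.27 over Gen1 WT (adjusted p = 0.0018) and 3.52 ± 0.30 over Gen5 WT (adjusted p = 8.41e-05).

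SAUR22 (AT5G18050, chr5:5974341-5975087) had 327, 352 and 177 normalised counts in Gen1 memory plants, 86.5, 46.5 and 22.2 in nonmemory plants and 102, 75.7 and 169 in Gen1 WT plants. It had 359, 660 and 295 in Gen5 memory plants and 31.6, 44.6 and 42.2 in Gen5 WT plants. Memory plants were again above all others, although Gen1 memory plant 3 and Gen1 WT plant 3 were close. On the log2 scale the fold change was 2.47 ± 0.48 over nonmemory plants (adjusted p = 0.00581, edgeR), 1.32 ± 0.36 over Gen1 WT (adjusted p = 0.0284) and 3.48 ± 0.34 over Gen5 WT (adjusted p = 0.000177). The call over Gen1 WT was lost without Gen1 memory plant 1 or 2 or Gen1 WT plant 1 or 2 (adjusted p = 0.063, 0.0861, 0.0941 and 0.0875, log2 fold change 1.22, 1.15, 1.23 and 1.09). The other 4 genes of the array had called log2 fold changes of 0.78 to 3.37. The lowest, SAUR24 over Gen1 WT, was kept in 2 of 6 fits that left out a plant. Scaled for length, the mean level in Gen5 memory plants ran from an RPKM (computed from the normalised counts) of 2.43 for SAUR19 to 15.7 for SAUR20, so the near-identical genes differed in level.

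**Figure D3:**
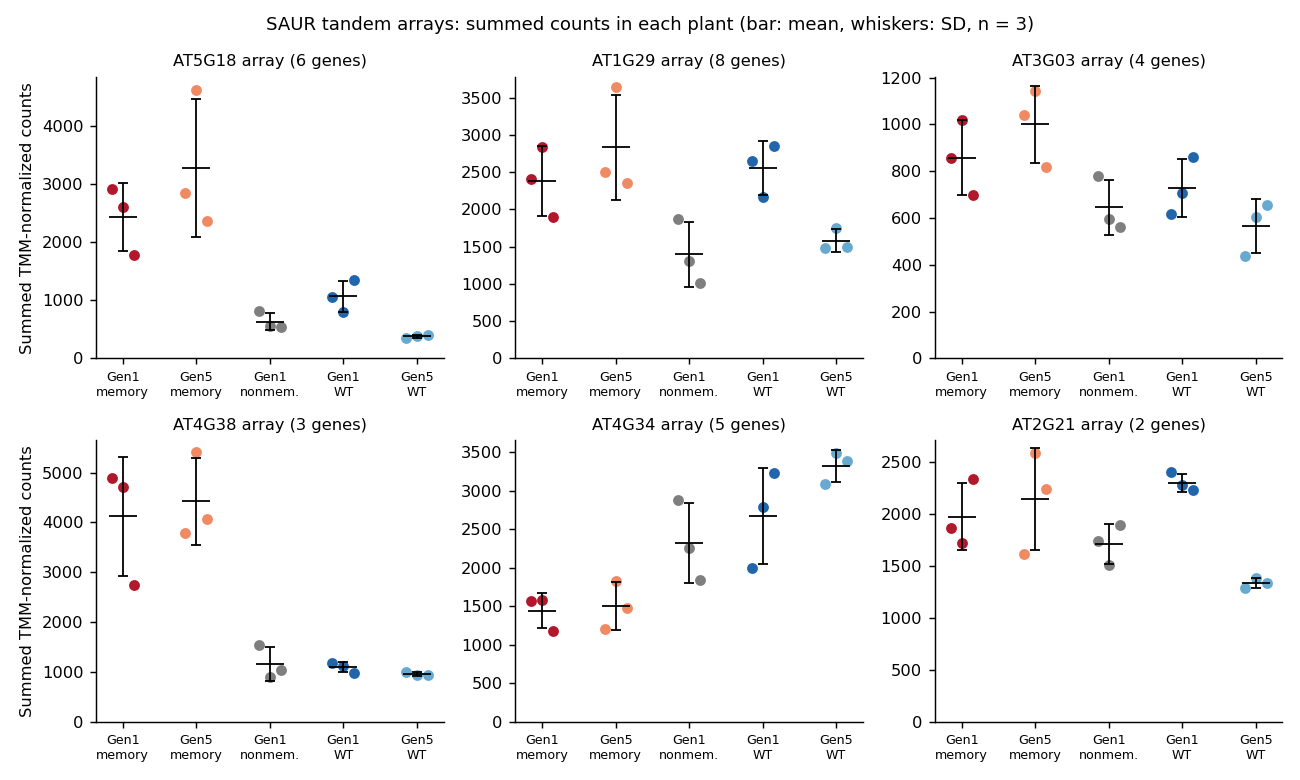
Summed TMM-normalised counts of each SAUR array in every plant (points), with the mean (bar) and SD (whiskers) of the 3 plants per group, memory groups on the left. In the AT5G18 and AT4G38 arrays every memory plant lies above every other plant, in the AT4G34 array every memory plant lies below every other plant, and in the AT1G29, AT3G03 and AT2G21 arrays the groups overlap.

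The genes inside and beside the array that were high enough to test were not called higher. AT5G18040, which lies between SAUR21 and SAUR22, had log2 fold changes of -0.01, 0.03 and 0.09 in the 3 memory comparisons. DRT101, between SAUR23 and SAUR24, had 0.19, 0.47 and 0.13, and the flanking genes TRP1 and CSD3 had -0.35 to 0.31, none of them called. AT5G18065, also within the array, was called lower over nonmemory plants with -0.77 (adjusted p = 0.00817, edgeR).

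The 3 genes of the AT4G38 array rose in each memory comparison. Their summed normalised count was 4899, 4721 and 2746 in Gen1 memory plants, against 1534, 894 and 1038 in nonmemory plants and 1182, 1123 and 987 in Gen1 WT plants, and 3788, 5415 and 4068 in Gen5 memory plants, against 993, 935 and 947 in Gen5 WT plants. In sum, the array was thus about as high in both memory generations and about as low in the 3 other groups. Its single genes did differ among the controls. SAUR14 was called higher in nonmemory over Gen1 WT plants (0.62) and SAUR16 lower in Gen5 WT over Gen1 WT plants (-0.99). SAUR14 (AT4G38840), its most modest member, had log2 fold changes of 0.93, 1.55 and 1.48.

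SAUR15 (AT4G38850, chr4:18126057-18126829), also known as SAUR-AC1 and long used as an auxin marker, had 322, 294 and 200 normalised counts in Gen1 memory plants, 73.3, 41.7 and 39.7 in nonmemory plants and 39.5, 24.0 and 40.4 in Gen1 WT plants. It had 245, 396 and 233 in Gen5 memory plants and 33.5, 41.7 and 26.5 in Gen5 WT plants. The lowest memory plant was far above the highest of the other plants. The log2 fold change was 2.40 ± 0.30 over nonmemory plants (adjusted p = 0.000937, edgeR), 2.98 ± 0.28 over Gen1 WT (adjusted p = 0.000376) and 3.10 ± 0.29 over Gen5 WT (adjusted p = 0.000125).

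SAUR16 (AT4G38860, chr4:18130237-18131284), known from seedlings as a light-induced gene of cotyledons, had 3012, 2765 and 1490 normalised counts in Gen1 memory plants, 517, 264 and 270 in nonmemory plants and 646, 573 and 496 in Gen1 WT plants. It had 1922, 2830 and 2383 in Gen5 memory plants and 298, 304 and 269 in Gen5 WT plants. The groups did not overlap, and the log2 fold change was 2.80 ± 0.35 over nonmemory plants (adjusted p = 0.000937, edgeR), 2.10 ± 0.26 over Gen1 WT (adjusted p = 0.00123) and 3.04 ± 0.15 over Gen5 WT (adjusted p = 7.21e-06).

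**Figure D4:**
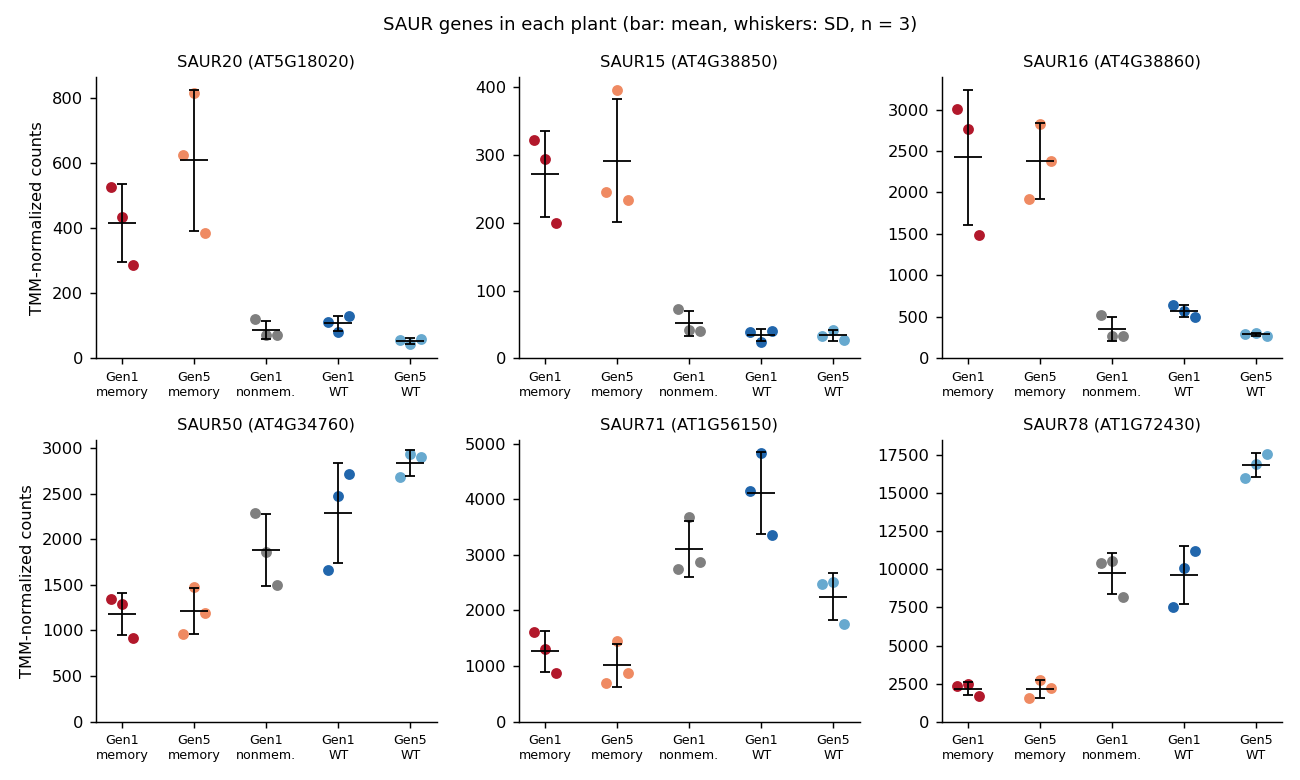
TMM-normalised counts in every plant (points) of 3 SAUR genes that were higher in memory plants (SAUR20, SAUR15 and SAUR16) and 3 that were lower (SAUR50, SAUR71 and SAUR78), with the mean (bar) and SD (whiskers) of the 3 plants per group, memory groups on the left. SAUR78 lies between 1525 and 2734 in the memory plants and between 7526 and 17603 in the others.

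The AT1G29 array was split. Its best known gene, SAUR63, promotes the elongation of hypocotyls, petals and stamen filaments. In Gen1 memory over nonmemory plants 5 of 8 genes were called higher, and in Gen5 memory over Gen5 WT plants 5 of 7, with none called lower. In Gen1 memory over Gen1 WT plants 2 were called higher (SAUR61 and SAUR65) and 2 lower (SAUR66 and AT1G29510), the last kept in 1 of 6 fits that left out a plant. The summed count was 2413, 2838 and 1904 in Gen1 memory plants, 1877, 1301 and 1015 in nonmemory plants and 2651, 2161 and 2854 in Gen1 WT plants, and 2506, 3641 and 2354 in Gen5 memory plants and 1480, 1755 and 1497 in Gen5 WT plants. Gen1 WT plants were thus as high as memory plants in sum, and the other control groups lower.

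SAUR61 (AT1G29420, chr1:10301377-10302099) was a low gene that rose in each comparison. It had 39.6, 47.6 and 32.0 normalised counts in Gen1 memory plants, 14.1, 0.969 and 2.90 in nonmemory plants and 2.82, 9.58 and 12.2 in Gen1 WT plants. It had 20.6, 49.5 and 40.9 in Gen5 memory plants and 8.88, 12.3 and 4.90 in Gen5 WT plants. The groups did not overlap, and the log2 fold change was 2.7 ± 0.69 over nonmemory plants (adjusted p = 0.0177, edgeR), 2.27 ± 0.48 over Gen1 WT (adjusted p = 0.0106) and 2.08 ± 0.48 over Gen5 WT (adjusted p = 0.0101). The first of these calls was lost without Gen1 memory plant 2 or nonmemory plant 3 (adjusted p = 0.0545 and 0.0715, log2 fold change 2.55 and 2.38).

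SAUR65 (AT1G29460, chr1:10307352-10308246) had 419, 566 and 314 normalised counts in Gen1 memory plants, 188, 125 and 113 in nonmemory plants and 207, 191 and 225 in Gen1 WT plants. It had 441, 709 and 419 in Gen5 memory plants and 99.7, 138 and 117 in Gen5 WT plants. The memory plants were above all others, and the log2 fold change was 1.61 ± 0.27 over nonmemory plants (adjusted p = 0.00329, edgeR), 1.07 ± 0.22 over Gen1 WT (adjusted p = 0.009) and 2.16 ± 0.24 over Gen5 WT (adjusted p = 0.000324). SAUR66 (AT1G29500) went the other way against Gen1 WT. It had 354, 385 and 345 normalised counts in Gen1 memory plants and 661, 512 and 718 in Gen1 WT plants, a log2 fold change of -0.79 ± 0.14 (adjusted p = 0.00537, edgeR), while it had 359, 588 and 356 in Gen5 memory plants and 278, 352 and 277 in Gen5 WT plants (0.53 ± 0.22, adjusted p = 0.0888). SAUR62, SAUR63 and SAUR64 had called log2 fold changes of 0.78 to 1.10 over nonmemory plants and of 0.58 to 0.93 over Gen5 WT, and -0.30 to 0.18, not called, over Gen1 WT. Over nonmemory plants these calls were kept in 3, 2 and 2 of 6 fits that left out a plant. Over Gen5 WT they were kept in 2, 6 and 6 of 6, and for SAUR62 the Gen5 groups overlapped. AT1G29490 was low, at 1.97 to 21.6 normalised counts over all plants, and was not called.

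In the AT3G03 array, whose genes are linked to rosette growth in warmth, SAUR29 was called higher in each comparison and SAUR28 in Gen5 memory over Gen5 WT plants only (1.40 ± 0.34, adjusted p = 0.0114, edgeR). SAUR29 (AT3G03820, chr3:976715-977474) had 398, 454 and 323 normalised counts in Gen1 memory plants, 299, 199 and 221 in nonmemory plants and 238, 264 and 310 in Gen1 WT plants. It had 465, 477 and 368 in Gen5 memory plants and 117, 230 and 233 in Gen5 WT plants. The memory plants were just above all others, and the log2 fold change was 0.72 ± 0.20 over nonmemory plants (adjusted p = 0.0239, edgeR), 0.54 ± 0.17 over Gen1 WT (adjusted p = 0.0422) and 1.18 ± 0.26 over Gen5 WT (adjusted p = 0.00864). Both Gen1 calls were lost in 4 of 6 fits that left out a plant. Over nonmemory plants these left out Gen1 memory plant 1 or 2 or nonmemory plant 2 or 3 (log2 fold change 0.70, 0.59, 0.60 and 0.66), and over Gen1 WT they left out Gen1 memory plant 1 or 2 or Gen1 WT plant 1 or 2 (0.55, 0.44, 0.46 and 0.53). Both were also lost with scaling by library size alone (0.56 and 0.36, adjusted p = 0.0627 and 0.125). SAUR26 and SAUR27 were not called, with log2 fold changes of -0.15 to 0.50.

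The AT4G34 array was the only array with called falls and no called rise. Its summed count was 1567, 1586 and 1178 in Gen1 memory plants, 2875, 2252 and 1835 in nonmemory plants and 1996, 2793 and 3232 in Gen1 WT plants, and 1200, 1828 and 1476 in Gen5 memory plants and 3087, 3495 and 3389 in Gen5 WT plants. Most of this sum was SAUR50 (AT4G34760, chr4:16582183-16583075), known from seedlings for its part in cotyledon opening in the light. SAUR50 had 1342, 1288 and 922 normalised counts in Gen1 memory plants, 2286, 1860 and 1497 in nonmemory plants and 1665, 2474 and 2715 in Gen1 WT plants. It had 967, 1472 and 1189 in Gen5 memory plants and 2678, 2939 and 2900 in Gen5 WT plants. Every memory plant was below every other plant, the closest being Gen5 memory plant 2 and nonmemory plant 3. Its log2 fold change was -0.66 ± 0.19 over nonmemory plants (adjusted p = 0.0276, edgeR), -0.94 ± 0.21 over Gen1 WT (adjusted p = 0.0135) and -1.22 ± 0.14 over Gen5 WT (adjusted p = 0.0004). The call over nonmemory plants was lost without Gen1 memory plant 2 or nonmemory plant 1 or 2 (log2 fold change -0.73, -0.50 and -0.67, adjusted p = 0.0536, 0.0889 and 0.0735), and that over Gen1 WT without Gen1 WT plant 2 (-0.87, adjusted p = 0.0524).

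SAUR3 (AT4G34790, chr4:16594362-16595153) had 112, 171 and 148 normalised counts in Gen1 memory plants, 378, 234 and 224 in nonmemory plants and 168, 165 and 287 in Gen1 WT plants. It had 120, 157 and 149 in Gen5 memory plants and 207, 277 and 237 in Gen5 WT plants. Gen1 memory plants overlapped Gen1 WT plants and not nonmemory plants. On the log2 scale the fold change was -0.95 ± 0.25 over nonmemory plants (adjusted p = 0.0218, edgeR), -0.75 ± 0.18 over Gen5 WT (adjusted p = 0.0123) and -0.51 ± 0.27, not called, over Gen1 WT (adjusted p = 0.187). The call over nonmemory plants was lost without Gen1 memory plant 1 or nonmemory plant 1 (-0.80 and -0.67, adjusted p = 0.0555 and 0.0637), and that over Gen5 WT without Gen5 WT plant 2 (-0.64, adjusted p = 0.0615). SAUR1, SAUR4 and SAUR5 were not called, with log2 fold changes of -1.36 to 0.50. Genes beside this array went both ways. The adjacent AT4G34750, a further SAUR gene, had log2 fold changes of -0.76 over nonmemory plants (adjusted p = 0.0045, edgeR), -0.34 over Gen1 WT (adjusted p = 0.154) and -0.93 over Gen5 WT (adjusted p = 0.00104), called in the first and the last. ASE2 (AT4G34740), next to it and an enzyme of purine synthesis, was called higher with 1.90, 2.31 and 1.70.

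In the AT2G21 array SAUR6 (AT2G21210) was called only in Gen5 memory over Gen5 WT plants. It had 1527, 2474 and 2199 normalised counts in Gen5 memory plants and 1220, 1302 and 1222 in Gen5 WT plants (0.74 ± 0.16, adjusted p = 0.0078, edgeR). The Gen1 memory plants, at 1778, 1624 and 2267, overlapped the nonmemory plants, at 1672, 1461 and 1827, and the Gen1 WT plants, at 2319, 2203 and 2144. SAUR7 was called nowhere.

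Single dispersed genes were called in either direction. In Gen1 memory over nonmemory plants 2 of 17 tested were called higher and 3 lower, in Gen1 memory over Gen1 WT plants 2 and 3, and in Gen5 memory over Gen5 WT plants 6 and 3. Set against the 11.1% and 12.2%, 9.52% and 10.5%, and 13.3% and 13.7% of all tested genes called higher and lower, the Gen1 counts are near the background and are no result about the dispersed genes as a set. The summed count of the 20 dispersed genes was lower in memory plants. It was 12979, 12917 and 11453 in Gen1 memory plants, 20933, 21963 and 19171 in nonmemory plants and 21864, 23436 and 23052 in Gen1 WT plants. It was 9877, 13463 and 11397 in Gen5 memory plants and 25349, 26007 and 25677 in Gen5 WT plants. SAUR78 was the most abundant of these genes outside memory plants, and SAUR71, also abundant, was lower in memory plants too.

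SAUR78 (AT1G72430, chr1:27264602-27265806, minus strand) had the largest fall of the 48 genes. Its protein is known to bind ethylene receptors and to promote leaf growth. It had 2326, 2476 and 1685 normalised counts in Gen1 memory plants, 10437, 10561 and 8189 in nonmemory plants and 7526, 10083 and 11235 in Gen1 WT plants. It had 1525, 2734 and 2219 in Gen5 memory plants and 15991, 16935 and 17603 in Gen5 WT plants. The lowest of the other plants was far above the highest memory plant. The log2 fold change was -2.16 ± 0.17 over nonmemory plants (adjusted p = 0.000133, edgeR), -2.14 ± 0.19 over Gen1 WT (adjusted p = 0.000315) and -2.95 ± 0.20 over Gen5 WT (adjusted p = 2.65e-05). Its mean RPKM was 22.9 in Gen1 memory plants and 22.8 in Gen5 memory plants, against 103 in nonmemory plants, 102 in Gen1 WT and 178 in Gen5 WT plants, where it was the highest of all 48 genes. SAUR76, a relative of SAUR78, was not called (-0.18, -0.04 and 0.22).

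SAUR71 (AT1G56150, chr1:21017311-21018122), of the SAUR41 subfamily, had 1617, 1307 and 875 normalised counts in Gen1 memory plants, 2750, 3681 and 2878 in nonmemory plants and 4140, 4828 and 3359 in Gen1 WT plants. It had 704, 1453 and 882 in Gen5 memory plants and 2482, 2510 and 1756 in Gen5 WT plants. The memory plants lay below all others, and the log2 fold change was -1.29 ± 0.22 over nonmemory plants (adjusted p = 0.00354, edgeR), -1.69 ± 0.23 over Gen1 WT (adjusted p = 0.00186) and -1.14 ± 0.26 over Gen5 WT (adjusted p = 0.00919). SAUR72, its close relative, was called lower over Gen1 WT alone (-0.70 ± 0.14, adjusted p = 0.00912), and SAUR41 itself, a promoter of cell expansion, was not called (0.33, 0.13 and -0.05).

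SAUR51 and SAUR52 are neighbours on chromosome 1, and they moved in opposite directions. SAUR51 (AT1G75580, chr1:28377377-28378310) had 43.7, 42.3 and 23.4 normalised counts in Gen1 memory plants, 14.1, 3.88 and 14.5 in nonmemory plants and 5.65, 10.5 and 3.75 in Gen1 WT plants. It had 32.5, 36 and 48.2 in Gen5 memory plants and 10.9, 3.79 and 2.94 in Gen5 WT plants. Its log2 fold change was 1.75 ± 0.51 over nonmemory plants (adjusted p = 0.029, edgeR), 2.45 ± 0.48 over Gen1 WT (adjusted p = 0.00744) and 2.72 ± 0.50 over Gen5 WT (adjusted p = 0.00344). The call over nonmemory plants was kept in 1 of 6 fits that left out a plant. It was lost without Gen1 memory plant 1 or 2 or nonmemory plant 1, 2 or 3 (log2 fold change 1.59, 1.63, 1.98, 1.35 and 2.01, adjusted p = 0.0718, 0.082, 0.0589, 0.067 and 0.0579).

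SAUR52 (AT1G75590, chr1:28382813-28383769) had 46.9, 51.8 and 33.0 normalised counts in Gen1 memory plants, 149, 129 and 92.9 in nonmemory plants and 68.7, 63.3 and 171 in Gen1 WT plants. It had 30.3, 30.3 and 51.3 in Gen5 memory plants and 66.1, 110 and 111 in Gen5 WT plants. Memory plants were below all others. Its log2 fold change was -1.49 ± 0.28 over nonmemory plants (adjusted p = 0.00481, edgeR), -1.34 ± 0.33 over Gen5 WT (adjusted p = 0.0123) and -1.19 ± 0.43, not called, over Gen1 WT (adjusted p = 0.0723). The call over Gen5 WT was lost without Gen5 WT plant 2 (-1.23, adjusted p = 0.0535). Over Gen1 WT the fall passed the thresholds with DESeq2 (adjusted p = 0.0297), with all 15 plants in a single edgeR fit (adjusted p = 0.0244) and with scaling by library size alone (adjusted p = 0.0393).

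SAUR10 (AT2G18010, chr2:7833782-7834653), a gene known to respond to auxin and brassinosteroid, had 37.5, 57.1 and 24.5 normalised counts in Gen1 memory plants, 18.8, 6.78 and 13.5 in nonmemory plants and 11.3, 14.4 and 18.8 in Gen1 WT plants. It had 37.9, 67.4 and 36.7 in Gen5 memory plants and 3.95, 3.79 and 2.94 in Gen5 WT plants. The memory plants were above all others. On the log2 scale the fold change was 1.60 ± 0.48 over nonmemory plants (adjusted p = 0.0317, edgeR), 1.43 ± 0.41 over Gen1 WT (adjusted p = 0.033) and 3.69 ± 0.44 over Gen5 WT (adjusted p = 0.000466), where it was the largest rise of the tested SAUR genes. The Gen1 calls depended on single plants. Over nonmemory plants the call was lost without Gen1 memory plant 1 or 2 or nonmemory plant 2 or 3 (log2 fold change 1.64, 1.24, 1.3 and 1.63), and over Gen1 WT without Gen1 memory plant 1 or 2 or any Gen1 WT plant (1.48, 1.08, 1.27, 1.41 and 1.63).

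SAUR59 (AT3G60690, chr3:22434864-22436053) had 1562, 1670 and 1569 normalised counts in Gen1 memory plants, 1202, 1101 and 1167 in nonmemory plants and 1729, 1245 and 1308 in Gen1 WT plants. It had 1116, 2524 and 1682 in Gen5 memory plants and 1013, 820 and 818 in Gen5 WT plants. It was called over Gen5 WT alone (1.01 ± 0.26, adjusted p = 0.0162, edgeR), a call lost without Gen5 WT plant 2 or 3 (0.96 in each case, adjusted p = 0.0617 and 0.0577). Over nonmemory plants the log2 fold change of 0.47 ± 0.07 had an adjusted p of 0.00189 and missed the size threshold.

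The other dispersed genes changed less. SAUR53 (AT1G19840), SAUR32 (AT2G46690), a gene known from the apical hook, and SAUR9 (AT4G36110) were called higher in Gen5 memory over Gen5 WT plants (1.05, 0.68 and 0.62) and in neither Gen1 comparison. The call of SAUR9 was kept in 1 of 6 fits that left out a plant, and those of SAUR53 and SAUR32 in 6 of 6. SAUR70 (AT5G20810), with 21.9, 16.9 and 13.9 normalised counts in Gen1 memory plants, 11.3, 8.72 and 17.4 in nonmemory plants and 13.2, 14.4 and 7.51 in Gen1 WT plants, was called nowhere (0.50, 0.59 and 0.37). SAUR36 (AT2G45210), known for its part in leaf senescence, had 71.9, 69.8 and 32.0 in Gen1 memory plants, 95.9, 88.2 and 76.4 in nonmemory plants and 126, 83.4 and 89.2 in Gen1 WT plants. Its Gen5 memory plants, at 52.0, 124 and 57.6, overlapped the Gen5 WT plants, at 105, 113 and 93.2, and it was not called (-0.58, -0.77 and -0.41). Without Gen5 memory plant 2, the highest, the fall over Gen5 WT was called (-0.92, adjusted p = 0.0114, edgeR). SAUR31 (AT4G00880), with 2839 to 4406 normalised counts and a mean RPKM of 41.3 to 56.3 over the groups, varied little (0.33, 0.14 and 0.19, not called), and SAUR8 and SAUR30 were not called in a memory comparison.

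Of the genes too low to test, SAUR25 (AT4G13790) had 6.25, 3.17 and 13.9 normalised counts in Gen1 memory plants and 5.42, 4.50 and 7.33 in Gen5 memory plants, against 1.88, 0 and 0 in nonmemory plants, 0.941, 0 and 1.88 in Gen1 WT plants and 0 in each of the 3 Gen5 WT plants. SAUR54 was at 0 to 5.42 and SAUR55 at 0.981 to 12.5 over all plants.

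SAUR genes also varied together among plants of the same group. Among 38 SAUR genes with a mean of at least 20 counts, Gen1 memory plant 3 was the lowest of its group for 30 (78.9%), against 34.4% of 19042 genes of any kind. Gen5 memory plant 2 was the highest of its group for 32 (84.2%, against 42.4%), and nonmemory plant 1 likewise for 32 (84.2%, against 36.2%). Array members and co-regulated genes are not independent, so these shares describe the plants and carry no test.

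Comparisons without memory plants addressed whether the SAUR genes also differed among the controls. They share their plants with the memory comparisons, so the values are not independent of those above. In nonmemory over Gen1 WT plants 1 of 45 SAUR genes was called higher and 6 lower, while 2.82% of all tested genes were called higher and 4.89% lower. The gene called higher was SAUR14 (0.62 ± 0.16, adjusted p = 0.0386, edgeR). Those called lower were SAUR19, SAUR23, SAUR62, SAUR63, SAUR66 and SAUR30, with log2 fold changes of -1.08 to -0.61. The total of 7 was unstable: it was 2 without nonmemory plant 2, 3 without nonmemory plant 3, 1 without Gen1 WT plant 1 and 4 without Gen1 WT plant 2, and DESeq2 called 1 higher and 12 lower. With scaling by library size alone none was called higher and 6 lower.

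Wild-type plants of the 2 generations differed more. In Gen5 WT over Gen1 WT plants 1 of 43 SAUR genes was called higher and 19 lower, while 4.69% of all tested genes were called higher and 6.05% lower. All 6 AT5G18 genes were called lower in Gen5 WT, with log2 fold changes of -1.74 to -1.01, together with 4 of 7 AT1G29 genes (-1.12 to -0.75), SAUR16 (-0.99), SAUR6 (-0.84) and 7 of 16 dispersed genes, of which SAUR10 fell most (-2.03 ± 0.43, adjusted p = 0.0136, edgeR). The gene called higher in Gen5 WT was SAUR78 (0.80 ± 0.13, adjusted p = 0.00548). Generation and any difference in growth or sampling between the generations cannot be told apart.

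In Gen5 memory over Gen1 memory plants no SAUR gene was called by edgeR or DESeq2, 0 of 45 had an unadjusted p under 0.05, and 0% of all 19704 tested genes were called. The log2 fold changes ran from -1.25 (SAUR8) to 0.96 (SAUR5). A miss of the threshold does not show that the memory generations were equal. The SD of the summed AT5G18 count was 1194 in Gen5 memory (mean 3279) and 586 in Gen1 memory plants (mean 2431). It was 31.5 in Gen5 WT (mean 379) and 272 in Gen1 WT plants (mean 1067). Relative to the mean, the spread was about the same in Gen1 memory and Gen1 WT plants. It was larger in Gen5 memory than in Gen5 WT plants.

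Whether memory plants differed from WT by the same amount in both generations was tested on the 12 memory and WT plants as an interaction, called at an adjusted p under 0.05. It was called for 10 of 45 SAUR genes, each more positive in Gen5, while 6.03% of all tested genes were called. They were SAUR19, SAUR21, SAUR22, SAUR23 and SAUR24 of the AT5G18 array (1.46 to 2.18 on the log2 scale), SAUR63, SAUR66 and AT1G29510 of the AT1G29 array (0.98 to 1.31), SAUR6 (0.95) and SAUR53 (1.15). The Gen1 WT and Gen5 WT plants enter both this test and the comparison of WT generations, where all 10 genes were called lower in Gen5 WT. None of the AT4G38 genes was called (-0.08, 0.11 and 0.94), and neither was SAUR78 (-0.82 ± 0.29, adjusted p = 0.131, edgeR). The number of calls was 6 without Gen5 memory plant 2, 4 and 5 without Gen1 WT plants 1 and 3, and 3, 4 and 5 without Gen5 WT plants 1, 2 and 3, and 16 with DESeq2.

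**Figure D5:**
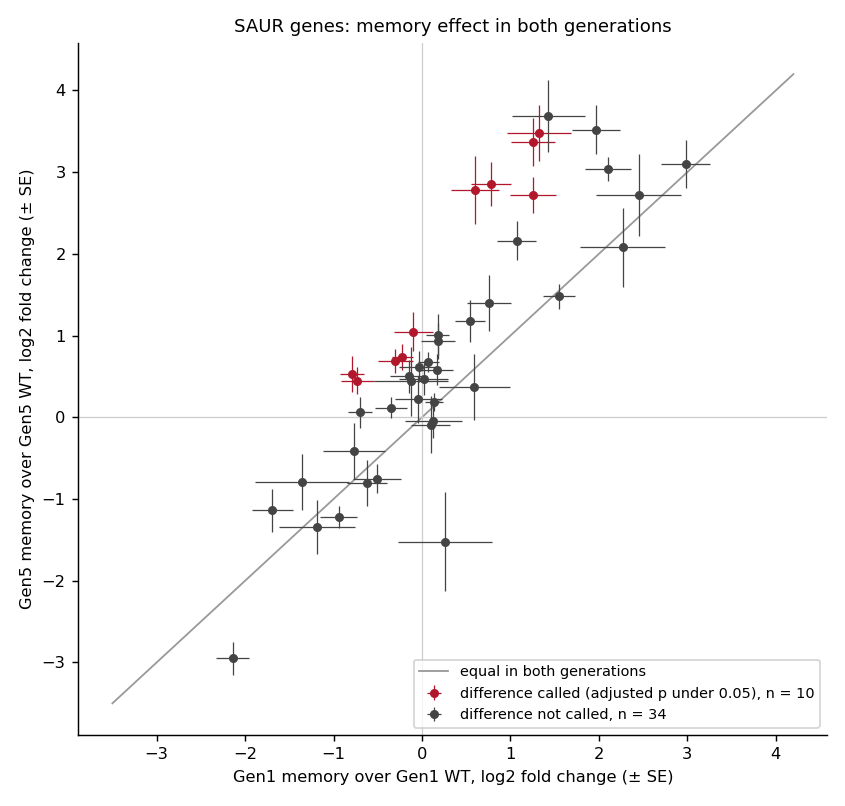
Log2 fold change (with SE) of Gen5 memory over Gen5 WT plants against that of Gen1 memory over Gen1 WT plants, for the 44 SAUR genes tested in both. Red marks the 10 genes for which the difference between generations was called, all above the line of equal effects. SAUR15 and SAUR14 lie close to the line.

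For genes that act with SAUR proteins or upstream of them, the lists are short. Of all tested genes, 9.52% to 13.7% were called in a direction. Beside that, counts of 1 or 2 of 9 are too small to say anything of the lists as such. Of 9 PP2C.D phosphatases, the proteins that SAUR19 inhibits, 1 was called higher and 1 or 2 lower in each memory comparison. AT5G02760 was higher (0.65, 0.77 and 1.01) and AT4G33920 lower (-0.64, -0.67 and -1.03). Of 9 tested AHA proton pumps, 1 was called higher and 1 lower over nonmemory plants, none over Gen1 WT and 1 higher over Gen5 WT. Of 9 auxin receptors and activating ARFs, 2, 1 and 2 were called higher and none lower, with ARF6 called in each (0.74, 0.59 and 0.54). Of 6 PIF and BZR regulators, 2 were called higher in each comparison and 2, 3 and 2 lower. These shares are above those of all tested genes, in both directions, but 6 genes are too few to be read as a set. PIF4, a growth-promoting bHLH factor, was higher (0.79, 1.39 and 0.96), as was PIF7 (0.73, 0.77 and 0.66). The brassinosteroid factors BZR1 (-0.60, -0.68 and -0.58) and BES1 (-0.65, -0.55 and -0.58) were lower. The remaining gene called lower over Gen1 WT was another PIF gene, so the PIF genes did not all rise. Of the 32 SAUR genes outside the set, 14 or 15 were tested in a memory comparison, 2, 0 and 2 were called higher and 3 lower in each. Called lower in all 3 were SAUR79 (-2.26, -1.46 and -3.17) and SAUR46 (-3.20, -2.58 and -3.17).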

How the data were processed

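RNA-seq was run on 15 plants, 3 per group. The authors aligned read pairs with STAR 2.7.0a, counted the uniquely mapped ones with QoRTs, without regard to strand, and deposited 1 table of raw counts per plant, neither normalised nor pooled. The submitters' processing notes name TAIR10. Coordinates and symbols come from TAIR10.1 of RefSeq (1-based). All 32548 nuclear genes of the tables were matched.

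Counts were tested in R 4.3.3 with edgeR 4.0.16 (TMM, filterByExpr, quasi-likelihood F test, Benjamini-Hochberg over all genes tested), each comparison on the 6 plants of its groups. Single-plant values are normalised counts, with TMM factors computed from the 15 plants together. Rows that name no gene held 0.879% to 1.08% of counts and were left out. On simulated data for Gen1 nonmemory over Gen1 WT, edgeR tested 19820 genes, found 184 of the 200 that had been changed and called 17 that had not. Sequences were read from TAIR10.1 with Biopython 1.88.

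The SAUR genes and the other gene lists were chosen with earlier results of these data known. Genes given in full were, in each array, the 2 with the largest mean size of log2 fold change over the 3 memory comparisons among those called in at least 2, and of the dispersed genes the 4 largest rises and 4 largest falls. SAUR6, SAUR25, SAUR66, the floral markers and the genes beside the arrays were named after their values were seen. The alternatives were RLE size factors, DESeq2 1.42.0, no filter, at least 10 counts in every plant, all plants in a single fit, the replicate block, a length and GC offset, stricter thresholds and each plant left out; scaling by library size alone was added after seeing the data.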

Additional observations from a re-analysis of the deposited data

Results flagged for a closer look

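The memory effect over WT differed between generations for 10 SAUR genes by the interaction test of edgeR on 12 plants (adjusted p under 0.05). All 10 were also called lower in Gen5 WT over Gen1 WT plants, which enter both tests. None was called in Gen5 memory over Gen1 memory plants. On the log2 scale, the effect in Gen5 minus that in Gen1 was 2.18 for SAUR19 (AT5G18010), 2.10 for SAUR21 (AT5G18030), 2.15 for SAUR22 (AT5G18050), 1.46 for SAUR23 (AT5G18060) and 2.07 for SAUR24 (AT5G18080). It was 0.98 for SAUR63 (AT1G29440), 1.31 for SAUR66 (AT1G29500), 1.16 for AT1G29510, 0.95 for SAUR6 (AT2G21210) and 1.15 for SAUR53 (AT1G19840). Of 12 fits that left out a plant, the call was kept in 12 for SAUR21, SAUR24 and SAUR66, 11 for AT1G29510, 8 for SAUR19, 4 for SAUR22, SAUR23 and SAUR6, 3 for SAUR63 and 1 for SAUR53. SAUR20, also of the AT5G18 array, had a difference of 1.54 ± 0.42 that was not called (adjusted p = 0.0528, edgeR).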

How the results depend on the processing

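At least 1.5 times fewer or more calls than in the report were made as follows. With an adjusted p under 0.01, 12 SAUR genes were called in Gen1 memory over nonmemory plants, 12 in Gen1 memory over Gen1 WT, 1 in nonmemory over Gen1 WT and 1 in the interaction. With a log2 fold change over 1, 2 were called in nonmemory over Gen1 WT and 10 in Gen5 WT over Gen1 WT. DESeq2 called 13 in nonmemory over Gen1 WT and 16 in the interaction. With each plant left out in turn, the calls ranged from 14 to 25 in Gen1 memory over nonmemory plants, 14 to 20 in Gen1 memory over Gen1 WT, 24 to 28 in Gen5 memory over Gen5 WT, 1 to 8 in nonmemory over Gen1 WT, 16 to 20 in Gen5 WT over Gen1 WT and 3 to 10 in the interaction, and stayed at 0 in Gen5 memory over Gen1 memory plants. Among the genes given in full, 1 direction turned: SAUR59 (AT3G60690), not called over Gen1 WT, was at -0.01 with scaling by library size alone. The cause of these shifts was not tested.

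Same-numbered plants of different groups did not deviate together throughout: correlations ran from -0.159 to 0.224 for Gen1 memory and nonmemory, -0.115 to 0.382 for Gen1 memory and WT, -0.347 to -0.00239 for Gen5 memory and WT, -0.0431 to 0.249 for nonmemory and Gen1 WT, -0.0911 to 0.523 for Gen5 WT and Gen1 WT and -0.369 to 0.258 for Gen5 and Gen1 memory. Each comparison had a value under 0.1. Plants 1 and 3, however, gave 0.382 and 0.374 for Gen1 memory and WT, and 0.415 and 0.523 for Gen5 WT and Gen1 WT. Whether the numbers pair the plants cannot be told from 3 values per comparison. With the replicate block, 19, 17 and 28 SAUR genes were called in the 3 memory comparisons, 8 in nonmemory over Gen1 WT, 20 in Gen5 WT over Gen1 WT, 0 in Gen5 memory over Gen1 memory plants and 10 in the interaction. The block ended the calls of SAUR29 (adjusted p = 0.0626) and SAUR10 (0.0537) over Gen1 WT, and of SAUR3 (0.0505), SAUR51 (0.0559) and SAUR10 (0.0663) over nonmemory plants (edgeR). At the depth of 77169986 to 79202824 counts per plant, 3 SAUR genes were too low to test.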
